A study of Mus musculus with 65 samples.

Results

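The 10 genes Cd14, Tlr2, Tlr4, Ly96, Myd88, Nfkbia, Nfkbiz, Tnfaip3, Il1r1 and Osmr encode receptors for lipopolysaccharide (LPS) and related bacterial products, the adaptor behind them, feedback regulators of NF-kB and a pair of cytokine receptors. They were picked by symbol, and all 10 were found among the 50686 genes of the count table. Bulk RNA of whole retina was sequenced from 65 adult C57BL/6J mice in 16 groups, with 1 library per mouse. Summed over genes, a mouse had between 5106429 and 8760443 counts, with a median of 7944665. The question asked of these genes was which of them depended on microglia without a challenge and which were higher after LPS.

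Control diet mice (CD, n = 5) received vehicle treatment. Mice of 6 groups were fed PLX5622, an inhibitor of the CSF1 receptor that removes microglia, for 2, 5, 7, 10, 14 or 21 days (DEP2, DEP5, DEP7, DEP10, DEP14 and DEP21). DEP5 had 3 mice and the other depletion groups had 4 each. Mice of 7 groups were returned from PLX5622 to control diet for 3, 5, 7, 10, 14 or 21 days or for 2 months (REPOP3, REPOP5, REPOP7, REPOP10, REPOP14, REPOP21 and REPOP60), with 6 mice in REPOP7 and 4 in each other group. LPSCD (n = 3) received LPS with vehicle. The 4 mice labelled as given PLX5622 and LPS are called LPSREPOP here, after the only other LPS group that the methods list, and their labels do not give the time of repopulation. The labels give no time between the LPS challenge and the harvest. The sample titles end in RE (39 mice) or re (26 mice), and the first principal component of 12346 genes carried 55.9% of the variance and separated the 2 suffixes completely. All LPS mice and all REPOP60 mice were re, all DEP5 mice were RE, and CD held 3 RE and 2 re mice. A re mouse of CD is labelled CD_2M (replicate 2M below), while the other CD mice carry plain numbers. The tag 2M also stands in the labels of the REPOP60 mice. The labels do not say what the suffix marks. It therefore entered each comparison that held both suffixes as a covariate. This sets LPSCD against the 2 re mice of CD, replicates 1 and 2M, while all 8 mice give the spread.

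LPS released by bacteria is handed to CD14 and from there to a complex of TLR4 and MD-2, the product of Ly96. The adaptor MyD88 carries the signal of most Toll-like receptors and of the IL-1 receptor to kinases that free NF-kB from its inhibitors, and NF-kB in turn induces some of these inhibitors, which closes a feedback loop. In the nervous system, microglia are well known to respond to LPS, and endothelial and glial cells also carry parts of this pathway.

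Sequences of short windows are shown because NF-kB binding to such sites is how feedback genes of this family are known to be switched on. From the RefSeq promoters of build GRCm38.p6, 8 start sites of 6 of the 10 genes were used. The 250 bases before each start were searched on both strands for the kB consensus, which 3.9% of 32851 promoters of the same length contained. Matches lay before the start of Tlr2, Nfkbia and Tnfaip3 and before 1 of the 2 starts of Il1r1. Those of Tlr2 overlapped each other, with the first of them in capitals, and Tnfaip3 had 2 at 1 of its 2 starts. Capitals mark the match and lower case the flanking bases, 5′ to 3′ on the strand of the gene.
Tlr2 (chr3:83841762-83841791, minus strand): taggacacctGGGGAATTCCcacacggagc
Nfkbia (chr12:55492657-55492686, minus strand): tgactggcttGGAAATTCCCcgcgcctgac
Tnfaip3, farther from the start (chr10:19015516-19015545, minus strand): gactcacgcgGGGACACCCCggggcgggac
Tnfaip3, nearer to the start (chr10:19015411-19015432, minus strand): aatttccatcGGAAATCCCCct
Il1r1 (chr1:40266344-40266373, plus strand): cagggattttGGAATGCCCCcaaggagatg
The Nfkbia match began 29 bases before the start and the nearer Tnfaip3 match 12 bases before it. The windows of Myd88 and Osmr held no kB match, and that of Myd88 held 1 match to TTCNNNGAA, a STAT motif found in 7.02% of the promoters. Cd14, Tlr4, Ly96 and Nfkbiz were not searched.

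Levels between genes were compared as FPKM, the authors' values per length of transcript. In CD the most abundant of the 10 was Tnfaip3, which encodes the ubiquitin-editing enzyme A20, at 50.2 ± 15.2 FPKM (SD, n = 5). Nfkbia, which encodes the inhibitor IkBα that holds NF-kB in the cytoplasm, followed at 17.2 ± 2.06 FPKM. Nfkbiz, which encodes the nuclear regulator IkBζ, had 4.52 ± 0.526 FPKM and Myd88 had 3.85 ± 0.728 FPKM. The levels of Nfkbiz and Myd88 did not differ beyond their spread, while those of Tnfaip3 and Nfkbia did. Osmr, the receptor subunit for oncostatin M, had 2.39 ± 0.261 FPKM and Il1r1, the signalling receptor of IL-1, had 1.6 ± 0.261 FPKM. The receptor genes for LPS and bacterial lipopeptides were the least abundant, with 0.504 ± 0.111 FPKM for Cd14, 0.27 ± 0.203 for Ly96, 0.0848 ± 0.0686 for Tlr2 and 0.0612 ± 0.0275 for Tlr4. Ly96, Tlr2 and Tlr4, next to each other in this order, differed by less than their spread, while Cd14 lay above Ly96 by more than the larger SD.

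The depth behind the genes split them into 2 sets. Tnfaip3, Nfkbia, Nfkbiz, Osmr, Il1r1 and Myd88 had at least 36 counts in each of the 65 mice. Cd14, Ly96, Tlr4 and Tlr2 had at most 14 counts in any mouse. Tlr2 was at 0 in 16 mice and at 3 counts or fewer in 56 of 65, and Tlr4 was at 3 or fewer in 48. Levels below are CPM, the counts scaled to a common total on library sizes normalised by TMM, where 3 counts, taken as the floor, stand for 0.343 to 0.574 CPM. This floor and the counting intervals below cover counting error only. Counting ratios pool RE and re mice and take no account of the suffix.

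**Figure D1:**
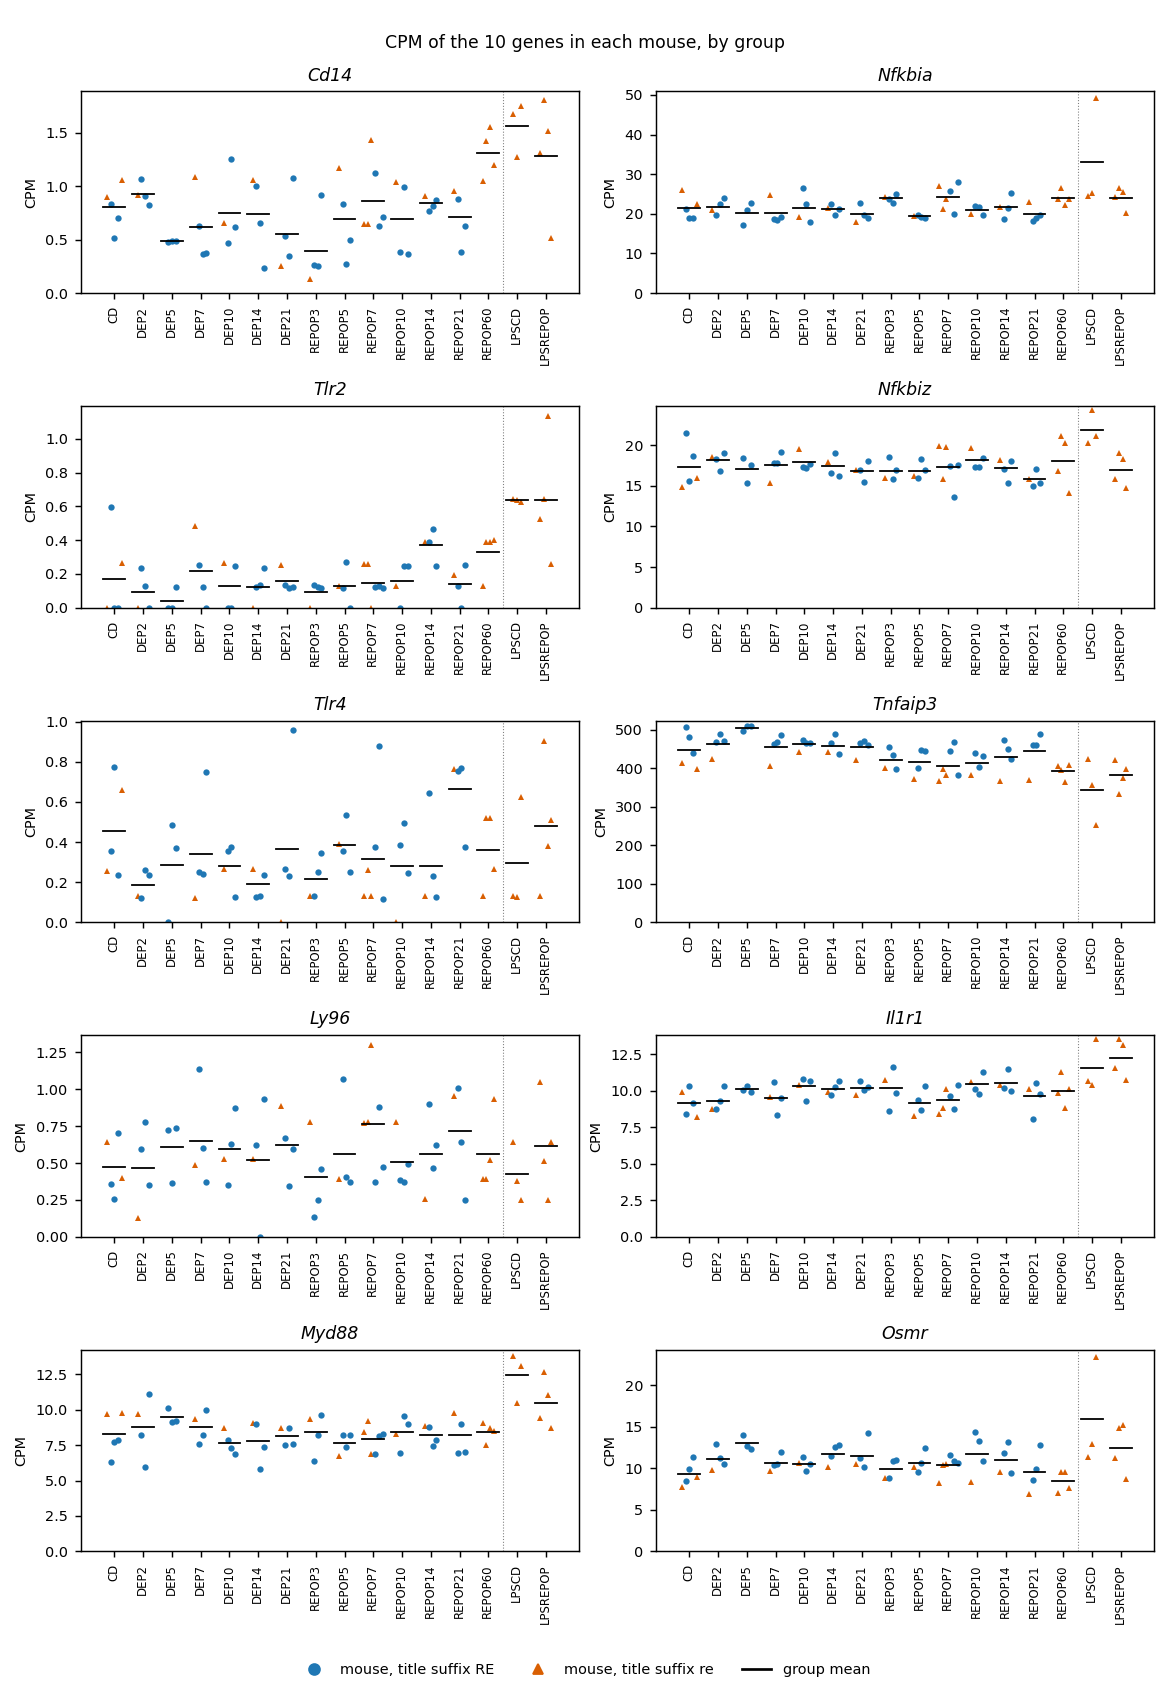
CPM of each of the 10 genes (vertical axis, from 0) in each of the 65 mice by group (horizontal axis), with blue circles for mice of title suffix RE, orange triangles for re and black bars for group means. Group means stayed close to each other from CD to REPOP60 for Myd88, Nfkbia, Nfkbiz and Il1r1, the re mice lay lower than RE mice for Tnfaip3, and the highest mice of Myd88, Nfkbia, Nfkbiz and Osmr were LPSCD mice.

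To see which of the genes depended on microglia, the 19 mice of DEP5 to DEP21 were compared with CD. A gene was called where its false discovery rate (FDR) was below 0.01 and its log2 fold change was beyond 1 in either direction. By edgeR's quasi-likelihood test 0 of the 10 genes were called, where 39 of 26155 genes were called (0.149%), all of them lower. Of the 10, only Osmr had an unadjusted p under 0.05 by edgeR, as did 5.95% of all genes, and DESeq2 called 0 of them as well. In bulk RNA, fewer cells of a type and less RNA per cell cannot be told apart. The labelled depletion itself was visible, since 15 microglia marker genes summed to 67.2 ± 7.4 CPM (SD, n = 5) in CD and to 25.2 ± 1.79 CPM (n = 4) in DEP21, where Cx3cr1, Tmem119, C1qb, Siglech and Fcrls were at 0 in each mouse.

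Of the 10 genes, 8 had a 95% interval that lay above a log2 fold change of -1 in this comparison, and the intervals of Tlr2 and Tlr4 reached beyond it. For the 6 well-counted genes the lowest bound was -0.22 and the highest 0.46. The median log2 fold change of the 15 microglia markers was -4.72 in the same comparison, that of the 10 genes 0.01 and that of all genes tested -0.0075. Among the comparisons of each of the 13 depletion and repopulation groups with CD, 129 tests were made on the 10 genes. By edgeR or DESeq2 0 were called, 5 had an unadjusted p under 0.05, and the smallest FDR was 0.373. Over all genes in these comparisons 6.57% of tests had an unadjusted p under 0.05. Among depletion groups the share of all genes called was 0.0884% at DEP21, 0.0625% at DEP7, 0.0585% at DEP10, 0.0501% at DEP2, 0.0419% at DEP14 and 0.0345% at DEP5. The order changed with the replicate block, a term for the replicate number in place of the suffix term, and also with neither term. Among repopulation groups it was 0.0838% at REPOP10, 0.0678% at REPOP7, 0.0548% at REPOP21, 0.0504% at REPOP5, 0.0377% at REPOP3 and 0% at both REPOP14 and REPOP60. This order changed too, since REPOP60 had 62 genes called with the replicate block, the most of these groups, and REPOP10 and REPOP21 had 0 without the suffix term.

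**Figure D2:**
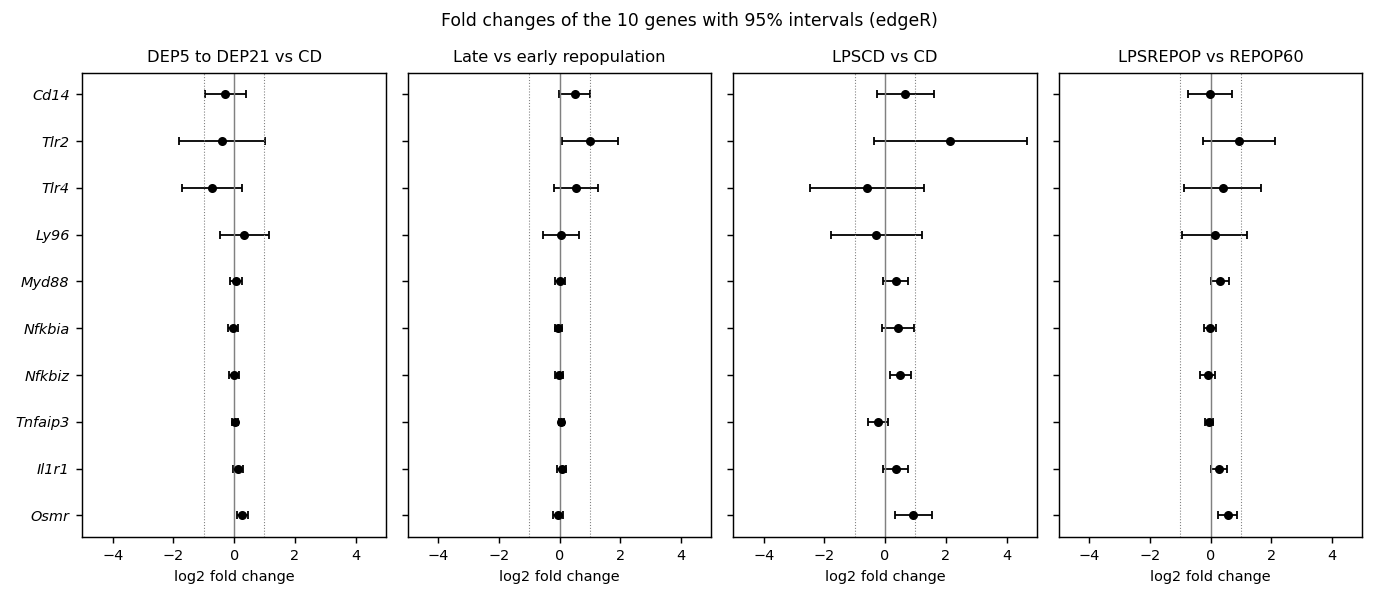
Log2 fold change (horizontal axis) of the 10 genes (rows) with its 95% interval in 4 comparisons by edgeR, where solid grey lines mark 0 and dotted lines -1 and 1. Intervals are wide for Tlr2, Tlr4 and Ly96 and narrow for the genes with more counts, and the points of Osmr lie furthest to the right of 0 among the well-counted genes in both LPS comparisons, at 0.93 and 0.56.

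Cd14 (ENSMUSG00000051439), the co-receptor that passes LPS on to TLR4, spans bases 36725067 to 36726798 on the minus strand of chromosome 18 in GRCm38. Its 5 CD mice had 0.903, 0.832, 0.516, 0.705 and 1.06 CPM, and the 19 mice of DEP5 to DEP21 ranged from 0.234 to 1.26 CPM with a median of 0.535. The depleted mice lay on both sides of the CD mice. Over all mice of these groups there were 97 counts against 32, a ratio per library of 0.79 with an exact 95% counting interval from 0.525 to 1.22. In early repopulation (REPOP3, REPOP5 and REPOP7, n = 14) Cd14 ranged from 0.13 to 1.43 CPM with a median of 0.646, and in late repopulation (REPOP14, REPOP21 and REPOP60, n = 12) from 0.385 to 1.56 CPM with a median of 0.896. The log2 fold change of late over early was 0.50 ± 0.25 (SE; FDR = 1 by edgeR) and was 0.25 ± 0.35 among RE mice alone, which leave out REPOP60. The 4 re mice of REPOP60 were the highest of the groups without LPS, with a mean of 1.31 ± 0.23 CPM.

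Tlr4 (ENSMUSG00000039005) encodes the signalling receptor for LPS and spans 66827584 to 66930284 on the plus strand of chromosome 4. The CD mice had 0.258, 0.357, 0.773, 0.235 and 0.66 CPM, that is between 2 and 6 counts each. Over DEP5 to DEP21 there were 45 counts in 19 mice against 18 in 5, a ratio of 0.652 with a counting interval from 0.37 to 1.2. Whether Tlr4 was lower in depleted retinas was not detectable at this depth. Ly96 (ENSMUSG00000025779) spans 16688051 to 16709611 on the plus strand of chromosome 1 and had 0.645, 0.357, 0.258, 0.705 and 0.396 CPM in the CD mice. The depleted mice gave 92 counts against 19, a ratio of 1.26 with an interval from 0.765 to 2.19. Single depleted mice ranged from 0 to 1.14 CPM, and whether Ly96 differed without microglia was not detectable at this depth. Its group means ran from 0.405 CPM in REPOP3 to 0.763 CPM in REPOP7 with no gap between neighbouring groups larger than their SD.

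Tlr2 (ENSMUSG00000027995), a receptor for bacterial lipopeptides, spans 83836272 to 83841767 on the minus strand of chromosome 3. In CD, 3 mice had 0 CPM and the others 0.594 and 0.264 CPM. The depleted mice gave 21 counts in 19 mice against 7 in 5, a ratio of 0.782 with an interval from 0.32 to 2.18. CD replicate 2 held 5 of the 7 counts, and without it the log2 fold change turned from -0.41 ± 0.7 to 1.14 ± 0.98 by edgeR, so no direction is given for Tlr2 in depletion. Late repopulation had 26 counts in 12 mice and early repopulation 14 in 14, a ratio of 2.26 with an interval from 1.14 to 4.67. The edgeR test of late against early gave a log2 fold change of 0.99 ± 0.45 (FDR = 1), and 0.75 ± 0.62 among RE mice alone. On log2(FPKM + 0.1), limma gave 0.88 ± 0.15 with an FDR of 0.00649, and over all alternatives of this comparison the FDR ran from 0.00591 to 1. REPOP14 was high with 0.39, 0.386, 0.464 and 0.25 CPM, while REPOP21 had 0.191, 0.126, 0 and 0.251 CPM, so the groups of late repopulation overlapped with those of early repopulation. In the comparison of late with early repopulation 0 of the 10 genes and 28 of 26467 genes (0.106%), all higher, were called. In that comparison Tlr2 alone of the 10 had an unadjusted p under 0.05, as did 4.54% of all genes, and DESeq2 called 0 of them.

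Among other receptors of this pathway, 3 co-receptors were lower in depleted retinas. A list of 14 other receptors and co-receptors was read beside the 10 genes, and 12 of them were tested in the depletion comparison. Ly86, Itgam and Itgb2 were called lower and none higher, where 39 of 26155 genes (0.149%) were called, all lower. Ly86 encodes MD-1, the relative of MD-2 that partners CD180. It had 0.903, 0.951, 0.645, 1.41 and 0.66 CPM in CD, and was at 0 in each mouse of DEP5, DEP7, DEP14, DEP21, REPOP3 and REPOP5. Over DEP5 to DEP21 it had 1 count in 19 mice against 37 in 5, a ratio of 0.00705 with a counting interval from 0.000174 to 0.0418 (edgeR FDR = 8.26e-07). In late repopulation it had 74 counts in 12 mice against 1 in the 14 mice of early repopulation, and was called higher. Itgam and Itgb2, the chains of complement receptor 3, had ratios of 0.0386 (interval 0.00982 to 0.111) and 0.141 (0.0661 to 0.289) in depleted against CD mice. The ratios of the 4 receptor genes among the 10 lay between 0.652 and 1.26 in the same mice. The difference between these ratios was not tested.

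**Figure D3:**
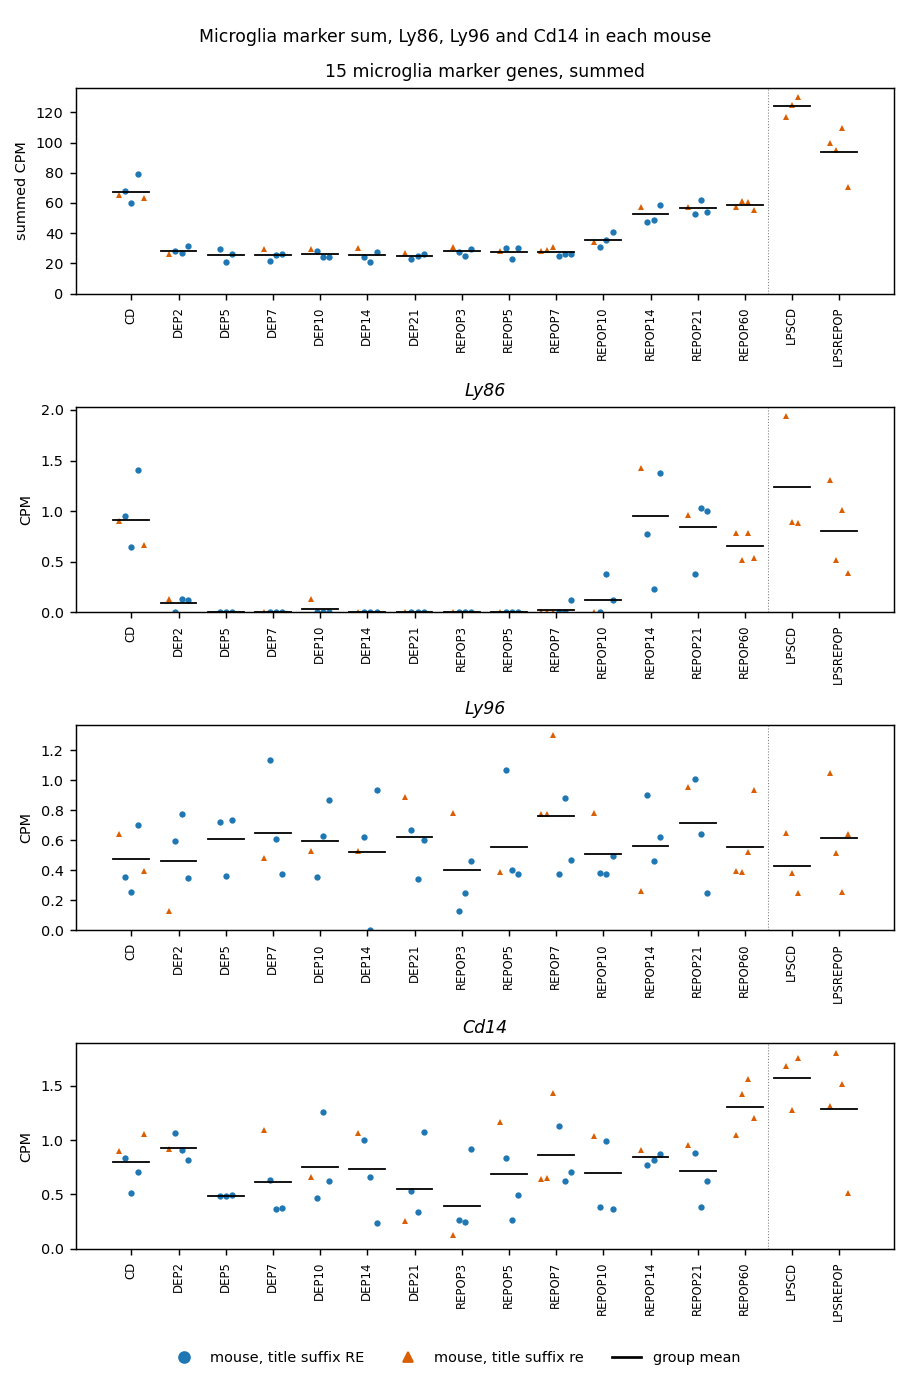
Summed CPM of 15 microglia marker genes (top) and CPM of Ly86, Ly96 and Cd14 (vertical axes, from 0) in each mouse by group, with blue circles for RE mice, orange triangles for re mice and bars for group means. The marker sum and Ly86 are low from DEP2 to REPOP7 and back at or near the CD range from REPOP14, while Ly96 shows no such course, and its group means stay between 0.405 and 0.763 CPM.

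Myd88 (ENSMUSG00000032508), the adaptor of most Toll-like receptors and of the IL-1 receptor, spans 119335934 to 119341411 on the minus strand of chromosome 9. It overlaps Slc22a14 on the same strand and Acaa1a on the opposite one, so reads in the shared parts could belong to either gene. The CD mice had 9.68, 6.3, 7.73, 7.87 and 9.77 CPM, and the 2 highest were the re mice. The depleted mice ranged from 5.78 to 10.1 CPM with a median of 8.68. The log2 fold change was 0.07 ± 0.1 (FDR = 0.948 by edgeR), with a 95% interval from -0.13 to 0.27. Between late and early repopulation it was 0.02 ± 0.08.

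Nfkbia (ENSMUSG00000021025) spans 55489410 to 55492647 on the minus strand of chromosome 12. Its CD mice had 25.9, 21.3, 18.8, 18.9 and 22.6 CPM, and the depleted mice ranged from 17.1 to 26.5 CPM with a median of 19.8. The log2 fold change was -0.04 ± 0.09 with an interval from -0.22 to 0.14. Nfkbiz (ENSMUSG00000035356) spans 55811375 to 55838899 on the minus strand of chromosome 16 and had 14.8, 21.5, 15.6, 18.7 and 16 CPM in CD. The depleted mice ranged from 15.4 to 19.5 CPM, inside the range of CD, with a log2 fold change of -0.01 ± 0.08 and an interval from -0.18 to 0.15. Without LPS the highest group mean of Nfkbiz was 1.15 times the lowest and that of Nfkbia 1.26 times.

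Tnfaip3 (ENSMUSG00000019850) spans 19000910 to 19015657 on the minus strand of chromosome 10. The CD mice had 413, 506, 482, 439 and 397 CPM, and the 2 lowest were the re mice. The depleted mice ranged from 405 to 511 CPM with a median of 465. With the suffix in the model the log2 fold change was 0.03 ± 0.04 with an interval from -0.06 to 0.12, the narrowest of the 10 genes. Among mice without LPS, Tnfaip3 had 459 ± 30.1 CPM in the 39 RE mice and 398 ± 24.3 CPM in the 19 re mice. On the FPKM scale the same mice had 39.4 and 45.4, in the opposite order.

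Il1r1 (ENSMUSG00000026072) spans 40225080 to 40317257 on the plus strand of chromosome 1 and overlaps the predicted gene Gm38070 on the same strand. It had 9.93, 8.44, 10.3, 9.16 and 8.19 CPM in CD, and the depleted mice ranged from 8.35 to 10.8 CPM with a median of 10.1. The groups overlapped, and the log2 fold change was 0.12 ± 0.09 (FDR = 0.888). Osmr (ENSMUSG00000022146) spans 6813577 to 6874969 on the minus strand of chromosome 15. Its CD mice had 7.74, 8.44, 9.93, 11.4 and 8.98 CPM, and the depleted mice ranged from 9.67 to 14.2 CPM with a median of 11.2. All 19 depleted mice lay above 3 of the 5 CD mice, and the other CD mice lay among them. Its log2 fold change of 0.27 ± 0.09 had the smallest FDR of the 10 genes (0.587 by edgeR). Among RE mice alone it was 0.24 ± 0.12. On log2(FPKM + 0.1) it was -0.03, so the direction did not hold on that scale. The re mice of Osmr had 9.18 ± 1.21 CPM against 11.3 ± 1.51 CPM in RE mice without LPS. Summed over 4 astrocyte markers, CD had 27.4 ± 2.51 CPM and the DEP5 to DEP21 groups had means from 33.5 to 38.9 CPM. Of these markers, 1 was higher in depletion at an FDR under 0.05 by edgeR. Their part in the Osmr values was not tested.

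LPS was first compared in retinas with resident microglia, LPSCD (n = 3) against CD (n = 5). By edgeR 0 of the 10 genes and 0% of the 23606 genes tested were called, while 2486 genes (10.5%) had an unadjusted p under 0.05, and DESeq2 called 21 genes but none of the 10. Of the 10 genes, Osmr and Nfkbiz had an unadjusted p under 0.05, both higher. The median log2 fold change was 0.39 over the 10 genes and 0.0119 over all genes. In 4 of the 10 genes, Cd14, Tlr2, Myd88 and Il1r1, each LPSCD mouse lay above each CD mouse, which held for 6.43% of all genes tested. Against all 8 re mice without LPS that had microglia (2 of CD, 1 each of REPOP14 and REPOP21 and 4 of REPOP60) this was so for Tlr2, Myd88 and Osmr, 3 of the 10, and for 4.27% of all genes.

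LPSCD was also compared with these 8 re mice as controls, a fit that needs no suffix term. In it 1438 of 23747 genes were higher at an FDR under 0.05 (6.06%). Osmr, Myd88 and Nfkbia were among them and none of the other genes passed in either direction. Their log2 fold changes were 0.91 ± 0.17 for Osmr (FDR = 0.00169), 0.47 ± 0.12 for Myd88 (FDR = 0.0146) and 0.47 ± 0.15 for Nfkbia (FDR = 0.0428), all by edgeR. Over the alternatives of the comparison with CD the FDR ran from 5.93e-05 to 0.836 for Osmr, from 0.0291 to 0.838 for Myd88 and from 0.0029 to 0.992 for Nfkbia. None reached a log2 fold change over 1 with an FDR under 0.01 in any of them.

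Osmr in the LPSCD mice was 11.4, 13 and 23.5 CPM, and in the re mice used as controls it ranged from 6.89 to 9.61 CPM with a median of 8.36. All 3 LPSCD mice were above these controls, and replicate 3 was the highest of all 65 mice. The RE mouse of CD with 11.4 CPM reached the range of LPSCD. Against CD its log2 fold change was 0.93 ± 0.28 (FDR = 0.274 by edgeR). Without LPSCD replicate 3 it was 0.54 ± 0.2 (FDR = 0.659).

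Myd88 was 13.8, 10.4 and 13 CPM in LPSCD, above each of the 58 mice without LPS except 1 DEP2 mouse with 11.1 CPM. Its log2 fold change against CD was 0.35 ± 0.19 (FDR = 0.543 by edgeR). It stayed at 0.31 ± 0.2 without LPSCD replicate 3. Nfkbia was 24.4, 25.2 and 49.3 CPM, where replicates 1 and 2 lay within the range of the CD mice and replicate 3 was the highest of all 65 mice, next to 28.1 CPM in a REPOP7 mouse. Its log2 fold change of 0.44 ± 0.25 dropped to 0.03 ± 0.14 without that mouse, so the value rested on 1 retina.

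Nfkbiz was 20.3, 24.3 and 21.2 CPM in LPSCD against 14.8 and 16 CPM in the re mice of CD, but 1 RE mouse of CD had 21.5 CPM and the groups overlapped. In the fit it was 0.50 ± 0.16 higher on the log2 scale (FDR = 0.308 by edgeR), and 0.53 ± 0.18 without LPSCD replicate 3. Tnfaip3 was 424, 356 and 253 CPM, where replicate 3 had the lowest value of all 65 mice, followed by 333 CPM in an LPSREPOP mouse. Its log2 fold change was -0.24 ± 0.16 (FDR = 0.61) and -0.06 ± 0.11 without replicate 3, but -0.42 ± 0.13 without replicate 1 (FDR = 0.0687). Over the alternatives its FDR ran from 0.0354, with -0.27 ± 0.08 in the fit of all 16 groups, to 0.93. Its log2 fold change ran from -0.74 to -0.06 over them. Il1r1 was 10.7, 10.4 and 13.5 CPM in LPSCD, above each CD mouse, with a log2 fold change of 0.35 ± 0.2 (FDR = 0.557) and 0.22 ± 0.19 without replicate 3.

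Of the receptor genes for bacterial products, Cd14 was 1.68, 1.27 and 1.76 CPM in LPSCD, 37 counts in 3 mice against 32 in the 5 CD mice, a ratio of 1.96 with a counting interval from 1.19 to 3.25. The edgeR fit, which holds the suffix, gave a log2 fold change of 0.67 ± 0.43 (FDR = 0.608). Against the re mice used as controls it was 0.45 ± 0.28 (edgeR FDR = 0.342). REPOP60 mice without LPS reached up to 1.56 CPM, within the range of LPSCD. Tlr2 was 0.645, 0.636 and 0.627 CPM, which is 5 counts in each mouse, against 7 counts in the 5 CD mice together, a ratio of 3.64 with an interval from 1.4 to 10.5. CD replicate 2 held 5 of the 7 CD counts. Tlr2 did not pass the test across mice (edgeR FDR = 0.544), and over the alternatives its log2 fold change ran from 0.23 to 5.39. Tlr4 gave a ratio of 0.66 (0.233 to 1.66) and Ly96 one of 0.893 (0.371 to 2.02), so that neither a rise nor a fall could be detected for the TLR4 complex. LPSCD replicate 3 held 5 of the 7 Tlr4 counts in LPSCD. The log2 fold change of Tlr4 was -0.60 ± 0.87 by edgeR, -1.72 ± 1.06 without that mouse and 0.18 ± 1.26 without CD replicate 2M.

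**Figure D4:**
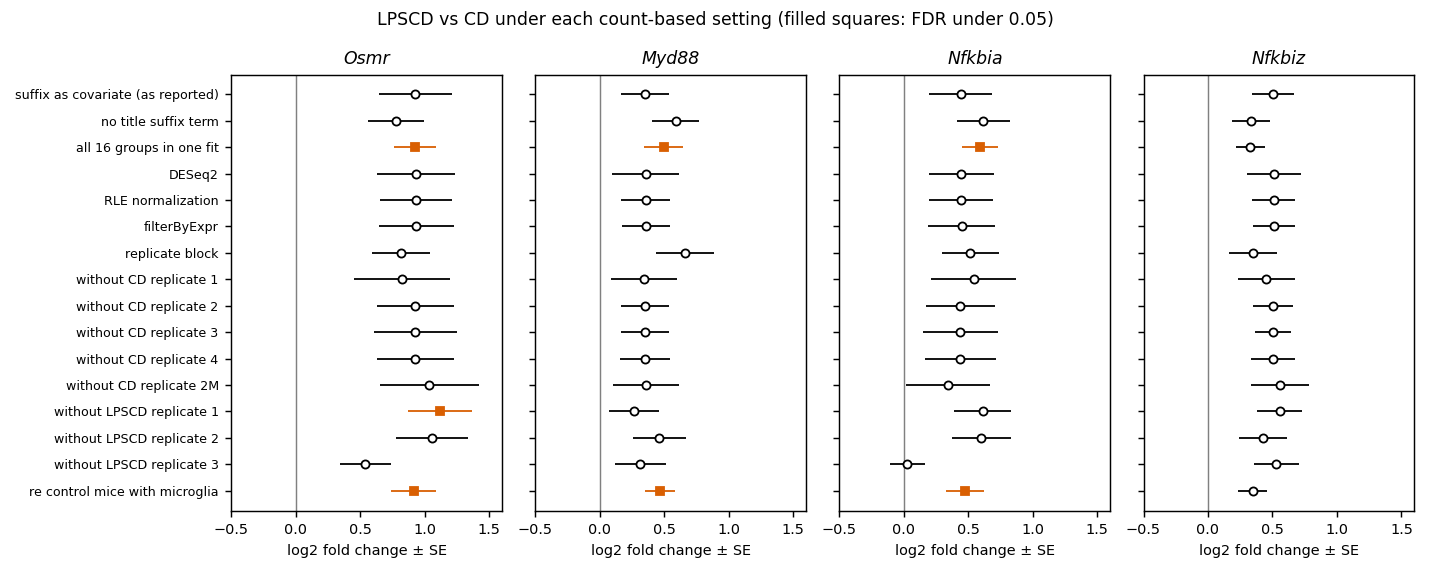
Log2 fold change ± SE (horizontal axis) of LPSCD against CD for Osmr, Myd88, Nfkbia and Nfkbiz under each count-based setting (rows), where open circles are values with an FDR of 0.05 or more and filled squares values with an FDR under 0.05. All 4 genes stayed above 0 under each setting drawn, and without LPSCD replicate 3 the value of Nfkbia dropped to 0.03 and that of Osmr to 0.54.

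LPS was compared next in repopulated retinas, LPSREPOP (n = 4) against REPOP60 (n = 4), where all mice were re. Of all genes 109 of 24927 were called (0.437%), 98 of them higher, and 0 of the 10 genes were among them by edgeR or by DESeq2. Of the 10, Osmr, Il1r1 and Myd88 had an unadjusted p under 0.05, all higher, as did 14% of all genes in either direction. In none of the 10 genes did all LPSREPOP mice lie above all REPOP60 mice, which held for 3.98% of all genes. With the 6 re mice of REPOP14, REPOP21 and REPOP60 as controls, 2.86% of genes were higher at an FDR under 0.05, and of the 10 genes only Osmr was, with 0.56 ± 0.14 (FDR = 0.0142 by edgeR).

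Osmr was 11.3, 14.8, 15.2 and 8.71 CPM in LPSREPOP and 7.07, 9.6, 9.6 and 7.59 CPM in REPOP60, so that 3 mice lay above the REPOP60 range and replicate 4 within it. The fitted difference was 0.56 ± 0.16 on the log2 scale (FDR = 0.0546 by edgeR), and without LPSREPOP replicate 4 it was 0.70 ± 0.15 (FDR = 0.0056). Over the alternatives the FDR ran from 0.00274 to 0.324. Il1r1 was 11.5, 13.5, 13.2 and 10.8 CPM in LPSREPOP and 9.83, 11.3, 8.82 and 10.1 CPM in REPOP60, with a log2 fold change of 0.29 ± 0.13 (FDR = 0.29). Only the lowest LPSREPOP mouse fell into the REPOP60 range.

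Myd88 was 9.44, 12.6, 11 and 8.71 CPM in LPSREPOP and 9.04, 7.53, 8.69 and 8.52 CPM in REPOP60, with a log2 fold change of 0.30 ± 0.14 (FDR = 0.32 by edgeR). Nfkbia was 24.1, 26.4, 25.4 and 20.1 CPM in LPSREPOP and 23.7, 26.5, 22.3 and 23.8 CPM in REPOP60, with a log2 fold change of -0.01 ± 0.1 and an interval from -0.20 to 0.19. Nfkbiz (-0.09 ± 0.12) and Tnfaip3 (-0.05 ± 0.06) also overlapped between the groups. Cd14 had 40 counts in each group and Tlr2 had 20 against 10, a ratio of 1.97 with a counting interval from 0.878 to 4.7.

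The LPS groups were compared with each other and their LPS effects were tested against each other. In LPSREPOP against LPSCD 0 of the 10 genes and 0% of 24500 genes were called by edgeR, and 1973 genes (8.05%) had an unadjusted p under 0.05. In the difference of the LPS effects 0 of the 10 genes and 0% of 25712 genes were called, and 1519 genes (5.91%) had an unadjusted p under 0.05. DESeq2 called 0 of the 10 genes in both. Nfkbiz was 15.9, 19.1, 18.3 and 14.7 CPM in LPSREPOP, below each LPSCD mouse, which made it 1 of the 10 genes where 2.97% of all genes tested were lower without overlap. Its log2 fold change was -0.36 ± 0.13 (FDR = 0.617 by edgeR), and the difference of its LPS effects was -0.59 ± 0.21 (FDR = 0.804). The same log2 fold change of Nfkbia was -0.45 ± 0.21 (FDR = 0.617) and -0.04 ± 0.13 without LPSCD replicate 3. For the other 8 genes the unadjusted p was 0.05 or more in both tests. In the test of the LPS effects against each other the intervals reached beyond -1 or 1 for 6 genes, Cd14, Tlr2, Tlr4, Ly96, Nfkbiz and Osmr, so that a difference of that size may go undetected.

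The wider pathway was read in 77 genes in 5 lists, the 14 receptors and co-receptors and lists of adaptors and kinases, IKK and NF-kB subunits, feedback inhibitors, and IL-1 and oncostatin M receptor signalling. In LPSCD against CD 0 of the 70 genes tested were called, where 0 of 23606 genes were called, and the median log2 fold change of the 70 was 0.17. In LPSREPOP against REPOP60 1 of 71 was called, Itgb2, where 109 of 24927 genes (0.437%) were called. Itgb2 had 78 counts in 4 mice against 13, a ratio of 5.89 (counting interval 3.25 to 11.6). At an FDR under 0.05 with no fold threshold, 5 of the 71 were higher and 1 lower by edgeR, where 1.87% of all genes were higher and 1.05% lower. Socs3, the inhibitor of JAK signalling, was higher by 0.89 ± 0.22 (FDR = 0.0253). Stat3, the transcription factor downstream of the OSM receptor, was higher by 0.30 ± 0.08 (FDR = 0.0428), and Cebpd, a transcription factor of the acute phase response, by 0.96 ± 0.26 (FDR = 0.0368). Irak3, an inhibitory member of the kinase family behind MyD88, was higher by 1.40 ± 0.39 (FDR = 0.0491). Ikbkg, the regulatory subunit of the IKK complex, was lower by -0.32 ± 0.07 (FDR = 0.00484). In LPSREPOP replicate 4, Stat3 (76.7 CPM), Cebpd (6.91 CPM) and Irak3 (1.15 CPM) lay within the REPOP60 range, while Socs3 (5.63 CPM) lay above it. Replicates 2 and 3 were the highest for Stat3 (109 and 99.8 CPM) and Cebpd (26.55 and 16.1 CPM). With the leading character of the title number as a term, 10 of all genes were called. The values of these genes in that fit are not given here.

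The mouse with the highest Osmr and Nfkbia, LPSCD replicate 3, also had the highest values of the 3 LPSCD mice for several other genes, which were chosen for display after their values were seen. Stat3 was 89.5, 126 and 299 CPM in the LPSCD mice and Socs3 5.16, 10.2 and 24.2 CPM. Cebpd was 10.2, 13.4 and 54 CPM, and Irak3 0.904, 1.27 and 3.39 CPM. Beyond the signalling genes, Itgam was 0.646, 1.4 and 4.26 CPM and Gfap, an intermediate filament of reactive glia, 11.8, 16.4 and 79.6 CPM. Other genes read in the same mice were not highest in replicate 3. Ly86 was 1.94, 0.891 and 0.878 CPM and Itgb2 1.94, 4.07 and 4.01 CPM. The neutrophil markers S100a8 and S100a9 were 0.646, 0.509 and 0.502 CPM and 1.94, 0.636 and 0.502 CPM. In CD, Stat3 ranged from 67.2 to 75 CPM and Socs3 from 1.94 to 4.11 CPM, but Socs3 reached 6 CPM in a DEP10 mouse without LPS, above LPSCD replicate 1.

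Markers of other cells moved with LPS, and their part in the values above was not tested. The 15 microglia markers summed to 117, 125 and 130 CPM in LPSCD against 67.2 ± 7.4 CPM in CD, and to 99.8, 95.1, 110 and 70.4 CPM in LPSREPOP against 58.7 ± 2.95 CPM in REPOP60. Of the 15, 4 were called higher in LPSREPOP against REPOP60, namely C1qa, C1qb, C1qc and Ctss. The defining markers Tmem119 and Cx3cr1 were not called, with log2 fold changes of 0.04 ± 0.39 and 0.46 ± 0.25 there. The 10 neutrophil markers summed to 6.71, 3.05 and 4.14 CPM in LPSCD and to 10.2, 2.84, 17.1 and 2.82 CPM in LPSREPOP against 2.77 ± 1.85 CPM in CD and 1.74 ± 0.086 CPM in REPOP60. S100a8 and S100a9 were called higher in LPSREPOP against REPOP60, and Csf3r was the most abundant of the list. LPSREPOP replicate 3, with the highest neutrophil sum, also had the highest Tlr2 of all mice at 1.14 CPM.

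The 9 endothelial markers summed to 480 ± 31.2 CPM in LPSCD and 399 ± 17.4 CPM in CD, and Cldn5 and Vwf were called higher in LPSREPOP against REPOP60. Their most abundant gene, Kdr, had lower means with LPS, 176 CPM in LPSCD against 211 in CD and 189 CPM in LPSREPOP against 206 in REPOP60, and was not called. The 4 astrocyte markers summed to 28.4, 33.1 and 91.6 CPM in LPSCD, again highest in replicate 3, against 27.4 ± 2.51 CPM in CD. Gfap was their most abundant gene. The 9 macrophage and monocyte markers summed to 12.2 ± 0.879 CPM in LPSCD and 14.8 ± 2.2 CPM in CD, with Pf4 at 0 in LPSCD and F13a1, Pf4 and Ly6c2 at 0 in CD. Lyve1 made up most of these sums, with 10.4 CPM in LPSCD and 14.4 CPM in CD. Of the 6 markers tested in this comparison, 4 had a positive log2 fold change, with a median of 1 and 0 at an FDR under 0.05 by edgeR. In LPSREPOP against REPOP60 it was 6 of 7, with a median of 0.46 and 1 marker higher at an FDR under 0.05. Of the 5 T cell markers, Cd3e, Cd3d, Cd3g and Cd2 were at 0 in each LPSCD mouse, and Cd3e, Cd3g and Cd2 also in each CD mouse. In LPSREPOP all 5 were at 0 in each mouse. The 5 blood markers summed to 2.29 ± 2.09 CPM in LPSCD and to 6.84 ± 3.07 CPM in CD, and Hbb-bs was called lower in LPSREPOP against REPOP60. The retina itself was marked by rod genes, whose 7 members summed to 51260 ± 1738 CPM in LPSCD and 52920 ± 4424 CPM in CD. The 9 Mueller glia markers summed to 4551 ± 62.3 CPM in LPSREPOP and 4081 ± 46 CPM in REPOP60, and the 5 pericyte markers to 118 ± 6.54 and 85.1 ± 8.56 CPM, without overlap between the mice. Their most abundant genes were Glul and Rgs5. REPOP60 had the lowest mean pericyte sum of all groups, and CD had 107 ± 7.94 CPM without LPS. At an FDR under 0.05 by edgeR, 2 of the Mueller glia markers were higher and 1 lower in LPSREPOP, and 1 of the pericyte markers was higher. In LPSCD and CD these sums overlapped between the mice. No single gene of the Mueller glia, pericyte, pigment epithelium and lens lists was called in either LPS comparison.

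Over all 16 groups the order of the group means put LPSCD first for Cd14, Myd88, Nfkbia, Nfkbiz and Osmr and last for Tnfaip3. Without LPSCD replicate 3 it stayed first for Cd14, Myd88, Nfkbia and Nfkbiz, but for Osmr its mean of 12.2 CPM lay below DEP5 at 13.1 and LPSREPOP at 12.5 CPM, for Tnfaip3 LPSREPOP was last, and for Tlr4 LPSCD moved from rank 9 to rank 16 with 0.128 CPM. The order takes no account of the title suffix. Of the 15 pairs of neighbouring groups in each order, at most 1 differed by more than the larger SD of the pair. That pair was LPSCD over REPOP60 for Cd14, LPSCD over LPSREPOP for Myd88, LPSCD over DEP2 for Nfkbiz, LPSCD over REPOP14 for Tlr2 and DEP5 over DEP2 for Tnfaip3. LPSREPOP was first for Il1r1 at 12.2 CPM and for Tlr2 at 0.641 CPM.

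The genes most alike to each well-counted gene were found among 15876 genes by Pearson's correlation of the 16 group means. These were means of log2(CPM + 1) after removal of the title suffix effect. The correlations are a description only. Osmr was most like Eng (r = 0.931), Fgfr1 (0.916) and Rfx2 (0.906). Il1r1 was most like 5033430I15Rik (0.881), Irak3 (0.877) and Pkp2 (0.876). Myd88 was most like Tmem165 (0.903), Ano6 (0.891) and Tcta (0.887). Nfkbia was most like Ldb1 (0.906), Ormdl3 (0.903) and Fnta (0.903), and Nfkbiz most like Pih1d1 (0.922), Hbs1l (0.908) and Ykt6 (0.904). Tnfaip3 was most like Dhcr7 (0.935), Gnb1 (0.915) and Heatr5a (0.91).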

How the data were processed

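Retinal RNA of 65 mice was analysed. The authors aligned reads to mm10 (HISAT2) and deposited, for each gene, the raw count from HTSeq and the FPKM value from StringTie. Versions, strand setting and annotation are not given in the sources used here. Symbols were matched by Ensembl identifier (50376 of 50686), and positions come from GENCODE M21 on GRCm38. The 10 genes and all lists were chosen with earlier results of these data known.

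Comparisons were fitted on counts with edgeR 4.0.16 in R 4.3.3 (TMM, quasi-likelihood F test, Benjamini-Hochberg over all tested genes), with the group and, where both occur, the title suffix as terms. The suffix stands in for the batch term of the study's methods, which do not name the batches. A gene was tested where, in some group compared, at least 1 count was seen in a fraction of at least 0.5 of its mice. The SE is the log2 fold change divided by the square root of F. Replicates are separate mice, so that p-values measure the spread between mice, and no mouse was left out. Counting intervals are exact binomial intervals at 95%. The depletion fit and the fits of LPS against unchallenged mice were also run on simulated counts. There only genes of higher counts were changed, by the same amount in each mouse of a group. That run does not cover the 4 low genes or mice that differ in their response. DESeq2 1.42.0, limma 3.58.1 on log2(FPKM + 0.1) or log2(FPKM + 1) and the other alternatives are named in the closing section. Named beside the 10 genes were pathway genes called in a comparison or under an FDR of 0.05, the most abundant and defining genes of the marker lists (those of 2 lists are not reported here), and the 3 genes most alike to each gene with a mean of at least 1 CPM. Tables and figures used Python 3.11.15, numpy 2.4.6, pandas 2.3.3, scipy 1.17.1 and matplotlib 3.10.9.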

Additional observations from a re-analysis of the deposited data

Results flagged for a closer look

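In 8 of 140 sets of gene and group, 1 mouse lay far from the others of its group by Dixon's test, which chance does in about 1 set of 20 (5%). Of these, 7 concern the 4 low genes and rest on few counts. Cd14 was 0.919 CPM (8 counts) in REPOP3 replicate 4, where the other mice had 0.13 to 0.265 CPM. Tlr2 was 0.253 CPM in DEP21 replicate 1 with 2 counts, 0 in REPOP3 replicate 1 and 0.131 CPM in REPOP60 replicate 1 with 1 count. Tlr4 was 0.878 CPM (7 counts) in REPOP7 replicate 5, where the others had up to 0.375 CPM, and 0.376 CPM (3 counts) in REPOP21 replicate 4, where the others had at least 0.757 CPM. Ly96 was 1.07 CPM (9 counts) in REPOP5 replicate 2, above 0.373 to 0.403 CPM in the others.

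The only well-counted gene among them was Nfkbia in DEP7, where replicate 1, the single re mouse of the group, had 24.8 CPM (205 counts) and the 3 RE mice had 18.5 to 19.2 CPM. Groups of 3 mice, LPSCD and DEP5, were not put to this test.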

How the results depend on the processing

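In each of the 160 repeats under another setting, the count of called genes among the 10 stayed at 0. Same-numbered mice of CD and LPSCD deviated from their group means with correlations of -0.113, 0.00861 and -0.124. The correlations were -0.00476 to 0.0626 for REPOP60 and LPSREPOP, and 0.204, 0.0408 and 0.0134 for LPSCD and LPSREPOP. These values cannot decide whether the replicate numbers pair the mice, since mice of different numbers were not set beside them. In addition, CD replicates 2 and 3 were RE and the LPSCD mice re. Pairing was not checked in the depletion and repopulation groups. In the following fits the replicate block took the place of the suffix term, so the shifts are not those of the block alone. With it the genes called were 24 of all tested in depletion, where 39 were called as reported, 96 in LPSCD against CD (0 as reported), 3 in the difference of the LPS effects (0) and 290 over the 13 comparisons with CD (150). No call among the 10 genes changed. The cause of these shifts was not tested, nor of those below.

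For depletion DESeq2 called 22, filterByExpr 14, limma on log2(FPKM + 1) 7 and the RE mice alone 23, and leaving out 1 mouse gave 23 to 41. For late against early repopulation (28) filterByExpr gave 13, no gene filter 44, limma on log2(FPKM + 1) 5, RE mice alone 14 and an FDR under 0.05 with no fold threshold 51. For LPSCD against CD (0) leaving out the suffix term gave 39, all 16 groups in one fit 237, DESeq2 21, RLE 2, no gene filter 188, limma 12 and 1 with the smaller and larger pseudocount, the re controls 241, an FDR under 0.05 with no fold threshold 11, and leaving out 1 mouse 0 to 246, the highest without LPSCD replicate 1. For LPSREPOP against REPOP60 (109) filterByExpr gave 68, no gene filter 179, limma 5 and 0, the leading character of the title number as a term 10, an FDR under 0.05 with no fold threshold 728, and leaving out 1 mouse 38 (REPOP60 replicate 4) to 171 (LPSREPOP replicate 4). For LPSREPOP against LPSCD (0) all 16 groups gave 18, no gene filter 1, limma 10 and 1, and leaving out 1 mouse 0 to 86. For the difference of the LPS effects (0) all 16 groups gave 1, no gene filter 33, and leaving out 1 mouse 0 to 113. The gene calls of all tested over the 13 comparisons with CD came to 150 as reported, where no suffix term gave 81, filterByExpr 99, no gene filter 432 and an FDR under 0.05 with no fold threshold 734.

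Of 550 log2 fold changes of the 10 genes under other settings, 41 changed sign, 37 of them within 1 SE. The other 4 were Osmr on FPKM, with -0.029 and -0.012 in depletion and 0.22 and 0.18 in LPSREPOP against LPSCD for the pseudocounts of 0.1 and 1. Leaving out 1 mouse gave -0.029 (without LPSCD replicate 3) to 0.33 for Tnfaip3 and -0.54 to 0.042 (without LPSCD replicate 3) for Osmr in LPSREPOP against LPSCD, and -0.56 to 0.018 (without LPSCD replicate 3) for Osmr in the difference of the LPS effects. Over all alternatives Tnfaip3 reached up to 0.67 in LPSREPOP against LPSCD. CPM on total counts moved 3 of 160 group means by more than 1 SD of their group, Cd14 mean CPM in DEP5 to 0.478, Tlr2 mean CPM in LPSCD to 0.651 and Tnfaip3 mean CPM in DEP5 to 496.9. Depth limits Cd14, Ly96, Tlr4 and Tlr2, with at most 14 counts in a mouse.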

Other observations

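Among the 58 mice without LPS, Osmr had 9.18 ± 1.21 CPM in re and 11.3 ± 1.51 CPM in RE mice, Tnfaip3 398 ± 24.3 and 459 ± 30.1 CPM, and Cd14 0.953 ± 0.368 and 0.653 ± 0.274 CPM. Suffix and group overlap in these means, since all REPOP60 mice were re and all DEP5 mice RE. Within CD alone, with 2 re and 3 RE mice, Osmr had 8.36 and 9.92 CPM, Tnfaip3 405 and 476 CPM and Cd14 0.98 and 0.684 CPM. In FPKM the order of Tnfaip3 over all mice without LPS turned (45.4 in re and 39.4 in RE), while that of Osmr did not (1.99 and 2.51). These differences were not tested.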
